A study of Mus musculus with 6 samples.

Results

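Notch signaling carries messages between touching cells. A Delta or Jagged ligand on one cell binds a Notch receptor on its neighbor, the receptor is cut first by an ADAM protease and then by gamma-secretase, and the freed intracellular part enters the nucleus, where it joins the DNA-binding protein Rbpj and a Mastermind coactivator to switch on repressor genes of the HES and HEY families. In adipose tissue, Notch signaling is known as a brake on the brown and beige program, acting partly through Hes1. Here, expression of the genes for Notch receptors, the ligand Jag1, the nuclear partners and the targets was compared between MICT1 KO and Scr cells. Both were given a protocol for brown adipocyte differentiation. Of 10 genes chosen by symbol, 8 were measured (Notch1, Notch2, Notch3, Jag1, Rbpj, Maml1, Hes1 and Hey1) among 13283 genes in the table, whereas Heyl and Nrarp were not analysed here.

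The 6 RNA-seq libraries came from one immortalized mouse brown preadipocyte (BAT) line that expresses Cas9. Scr cells, which the labels call WT, received a scrambled sgRNA, and MICT1 KO cells are pools made with sgRNAs against MICT1, the gene of a microprotein of brown adipocytes, and sorted for GFP, so they are not clones. Each group had 3 libraries, and the labels do not say which sgRNA pool each MICT1 KO library came from. All cultures, Scr included, were given the protocol for brown adipocyte differentiation and then 10 µM forskolin, an activator of adenylyl cyclase, for 6 h on day 6.

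The values are a normalized signal, read as estimated reads of a gene after division by a size factor, and correspond to between 15445834 and 17925627 reads per library. MICT1 was not analysed here, so the KO label was not checked on its target. Markers of the cell type differed strongly between the groups. All 8 adipocyte markers listed (Adipoq, Plin1, Fabp4, Cidec, Lpl, Lipe, Pparg and Cebpa) fell in MICT1 KO cells, by 4.95-fold (Pparg) to 101-fold (Adipoq). Their summed level was 7318 to 8846 CPM, the signal scaled to the library total, in Scr and 892 to 1288 CPM in MICT1 KO libraries. Of 8 adipose progenitor markers 6 were measured, with a summed level of 242 to 292 CPM in Scr and 866 to 896 CPM in MICT1 KO libraries, and of the 4 that were tested Dcn, Ly6a and Pdgfrb rose while Pdgfra fell. Most of that rise was Dcn, without which the sum was 225 to 266 CPM in Scr and 283 to 297 CPM in MICT1 KO libraries, a sum taken after the values were seen. Of 6 macrophage markers 2 were measured (4.97 to 7.98 and 6.19 to 8.68 CPM in sum) and of 6 myoblast markers only Des (2.73 to 3.07 and 2.98 to 4.70 CPM), and none of these passed. The part of these shifts in the results on the Notch genes was not tested, and in bulk RNA fewer cells of a type and less RNA per cell cannot be told apart.

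With limma-trend on log2(value + 1) and Benjamini-Hochberg adjustment over 12507 genes, 6 of the 8 Notch genes differed between the groups at an adjusted p under 0.05. The receptors Notch1 and Notch3, the target Hes1 and, by a small step, Rbpj were higher in MICT1 KO cells, while the ligand Jag1 and the coactivator Maml1 were lower. Notch2 and Hey1 did not pass. Most genes differed between these groups, so the count has to be read against that background. Of all genes tested 56.9% passed, 28.5% as higher and 28.3% as lower. The MICT1 KO values lay outside the Scr range for the same 6 Notch genes, against 62.0% of all genes tested (30.9% above and 31.2% below). Only Jag1 both passed and changed at least 2-fold, as did 7.99% of all genes tested as higher and 5.76% as lower. The median log2 fold change of the 8 genes was 0.20, against -0.0053 for all genes tested.

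**Figure D1:**
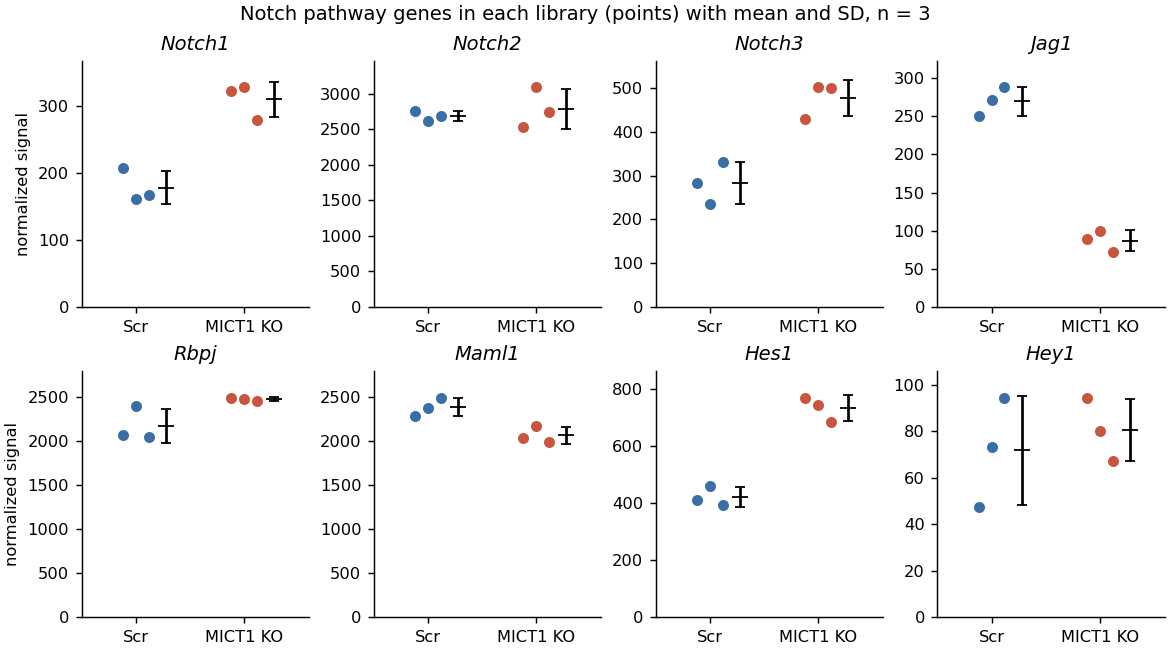
Normalized signal (vertical axes, from 0) of the 8 Notch pathway genes in each Scr (blue) and MICT1 KO (red) library, with mean and SD beside the points (n = 3). The groups are apart for every gene except Notch2 and Hey1, with Jag1 and Maml1 lower and Notch1, Notch3, Hes1 and Rbpj higher in MICT1 KO cells.

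The windows upstream of the start sites are shown for the receptors that rose, for the ligand that fell and for Rbpj, so that the letters can be read beside the changes. Each holds the 250 bases before a RefSeq start site on GRCm38.p6, in the direction of transcription. Capitals mark matches on either strand to CACNAG, the N-box to which HES repressors bind, in the Notch1 and Notch3 windows, and to TGGGAA, the core of the Rbpj motif, in the Rbpj window.
Notch1, minus strand, chr2:26503823-26504072: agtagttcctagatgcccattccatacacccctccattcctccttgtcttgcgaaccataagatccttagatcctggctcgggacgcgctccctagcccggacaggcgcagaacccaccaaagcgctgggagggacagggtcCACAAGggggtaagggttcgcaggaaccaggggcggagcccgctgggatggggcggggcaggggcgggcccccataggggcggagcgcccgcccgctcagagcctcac
Notch3, minus strand, chr17:32166891-32167140: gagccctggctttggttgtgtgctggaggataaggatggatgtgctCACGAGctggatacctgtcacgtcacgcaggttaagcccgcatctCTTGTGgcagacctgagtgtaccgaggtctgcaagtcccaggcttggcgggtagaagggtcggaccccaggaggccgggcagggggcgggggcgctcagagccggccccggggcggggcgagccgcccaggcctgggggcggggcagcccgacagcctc
Jag1, minus strand, chr2:137116521-137116770: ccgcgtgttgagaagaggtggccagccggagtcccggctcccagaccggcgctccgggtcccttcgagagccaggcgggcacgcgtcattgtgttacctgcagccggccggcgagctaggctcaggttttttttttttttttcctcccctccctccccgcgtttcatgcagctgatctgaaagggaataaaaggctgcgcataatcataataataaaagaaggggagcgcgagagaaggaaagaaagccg
Rbpj, plus strand, chr5:53590096-53590345: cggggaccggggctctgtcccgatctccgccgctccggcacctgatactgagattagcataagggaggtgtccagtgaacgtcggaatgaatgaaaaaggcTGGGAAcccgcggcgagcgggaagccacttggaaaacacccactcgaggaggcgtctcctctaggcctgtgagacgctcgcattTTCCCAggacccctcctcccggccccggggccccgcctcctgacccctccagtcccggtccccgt

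Windows were found for 6 of the 8 genes. The targets Hes1 and Hey1 had none, so their upstream bases were not searched for either motif. The Notch1 window held 1 match to CACNAG, and the Notch3 window held 2. In the Rbpj window 2 matches to TGGGAA were found, whose first bases lie 149 and 65 bases before the start site, and a second Rbpj window that overlaps it (chr5:53590236-53590485) held 1, at the position shared by both. The windows of Jag1 and Maml1 held no match to either, and that of Notch2 held 1 to CACNAG. None of them held the full cAMP response element TGACGTCA. Among all 32851 RefSeq windows of the same length, 36.7% held CACNAG, 21.6% held TGGGAA and 1.55% held TGACGTCA. A match is a string of letters and not a site of binding. All these windows were rich in G and C, from 57.2% for Jag1 to 72.0% for Notch2, with a median of 52.4% over all windows.

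Notch1 (chromosome 2, from 26457902 to 26503822, GRCm38.p6), the receptor whose cut intracellular part is the best studied of the family, had values of 207, 161 and 167 in the Scr and 323, 328 and 280 in the MICT1 KO libraries. Every MICT1 KO library was above every Scr library. The mean rose from 178 ± 25.1 to 310.4 ± 26.7 (SD, n = 3 each), which is 0.80 ± 0.14 (SE) in log2 (limma-trend, adjusted p = 5.24e-05), or 1.74-fold. None of its 6 values was a whole number of reads once the size factor was undone. On the opposite strand 0610009E02Rik overlaps 7.50% of its exon bases, and Gm13568, not analysed here, overlaps 2.91%. The values of 0610009E02Rik were 5.40, 14.9 and 7.24 in the Scr cultures against 0.995, 5.71 and 4.30 with MICT1 KO. The part of these overlaps in the Notch1 result was not tested. Genes not analysed here also overlap exon bases of Notch3 (6.03%, Gm17276, opposite strand), Notch2 (5.02%, Gm42820, same strand) and Maml1 (2.44%, Gm26542, opposite strand), and their part was not tested either.

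Notch3 (chromosome 17, from 32120820 to 32166896), the receptor best known from the mural cells of vessels, rose as well. Its values were 283, 235 and 331 in the Scr cultures against 430, 502 and 499.6 with MICT1 KO, and the groups were again apart. Notch3 rose from 283 ± 48.1 to 477 ± 40.8 (SD, n = 3 each), which is 0.76 ± 0.13 (SE) in log2 (limma-trend, adjusted p = 2.57e-05), or 1.70-fold. None of the tested markers on the list for mural cells rose with Notch3. Of 8 listed, 5 were measured, with a summed level of 42.8 to 55.9 CPM in Scr and 31.9 to 34.1 CPM in MICT1 KO libraries. Of these, Cspg4 and Acta2 fell, Tagln and Cnn1 did not pass, and Rgs5, the defining one, was at 1.85 to 9.16 in Scr and 3.16 to 11.4 in MICT1 KO libraries, too low to be tested. Pdgfrb, counted above with the adipose progenitor markers although mural cells express it too, rose (log2 fold change 0.48, limma-trend adjusted p = 4.46e-05).

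Notch2 (chromosome 3, from 98013538 to 98150367) was the most abundant receptor in both groups and showed no detectable difference. The values were 2754, 2614 and 2689 in the Scr cultures against 2527, 3088 and 2743 with MICT1 KO, so that the Scr values lay within the MICT1 KO range. Its log2 fold change was 0.048 with a 95% interval from -0.090 to 0.19 (limma-trend adjusted p = 0.558), which leaves room for a fall of 6.07% or a rise of 13.8%. Without KO replicate 2 the sign turned (-0.028, limma-trend adjusted p = 0.735).

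Since receptors of different length are compared, their mix was taken from RPKM, the signal per kilobase of exon scaled to the library total. Notch2 made up 83.6, 85.2 and 82.2% of the summed receptor level in the Scr and 74.8, 76.6 and 75.5% in the MICT1 KO libraries, with no overlap. The share of Notch3 was 11.4, 10.2 and 13.5% in Scr cells against 17.0, 16.6 and 18.3% with MICT1 KO. For Notch1 the shares were 4.76, 3.98 and 3.86% and then 7.24, 6.17 and 5.84%. Notch2 thus remained the main receptor, and the shares of Notch1 and Notch3 were higher in every MICT1 KO library. Notch4, the receptor known from endothelium, stayed at or below 1.02% in every library, and its change did not pass (log2 fold change 0.63, standard error 0.54, limma-trend adjusted p = 0.338). Of the endothelial markers, only Cdh5 of 8 was measured, at a level of at most 2.03 CPM, and it was higher in MICT1 KO libraries. The part of endothelial or mural RNA in the receptor results was not tested. The summed receptor level was 18.2 ± 0.960 RPKM (SD, n = 3) in Scr cells against 20.9 ± 1.96 RPKM (SD, n = 3) with MICT1 KO. The shares and sums are descriptions, with no test.

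**Figure D2:**
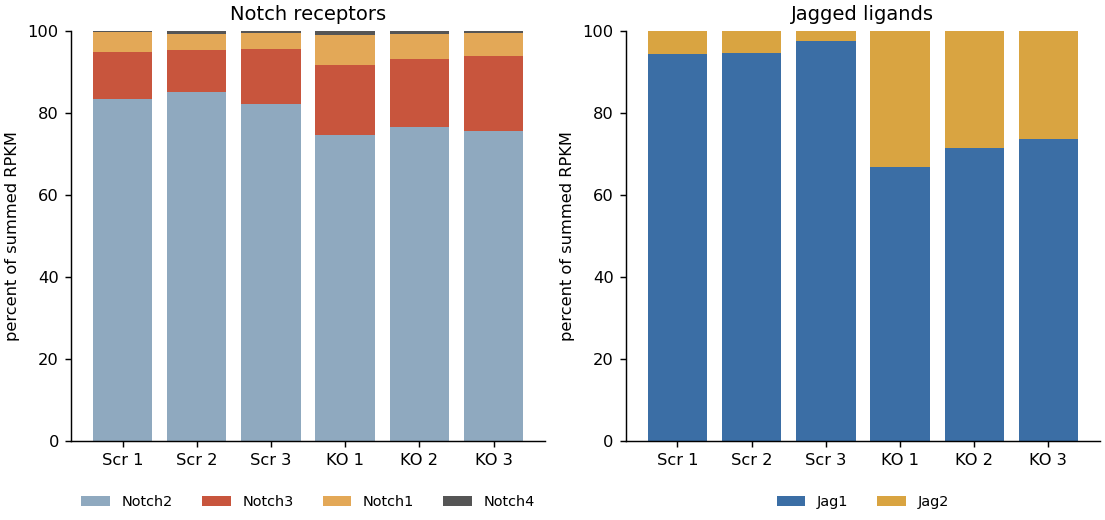
Share of each gene in the summed RPKM (percent, vertical axes) of the 4 Notch receptors (left) and of the 2 Jagged ligands (right) in each Scr and MICT1 KO library. Notch2 takes 82.2 to 85.2% of the receptor level in Scr and 74.8 to 76.6% in MICT1 KO libraries, and Jag1 takes 94.4 to 97.7% and 66.7 to 73.6% of the Jagged level.

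Jag1 (chromosome 2, from 137081451 to 137116520), a membrane ligand that activates Notch receptors on the next cell, showed the largest change of the 8 genes. Its values were 250.2, 272 and 288 in the Scr cultures against 89.6, 99.0 and 72.6 with MICT1 KO, and the highest MICT1 KO value was well below the lowest Scr value. Jag1 fell from 269.9 ± 18.9 to 87.1 ± 13.4 (SD, n = 3 each), which is -1.63 ± 0.17 (SE) in log2 (limma-trend, adjusted p = 4.07e-08), or 3.10-fold. A larger fall was seen in 331 of the 12507 genes tested. Over the 6 fits that each left out a library, the log2 fold change of Jag1 lay between -1.73 and -1.51.

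The other Jagged ligand, Jag2, changed the opposite way from a low level. It was at 17.8, 18.5 and 8.14 in the Scr cultures against 53.4, 47.4 and 31.1 with MICT1 KO, which is 1.55 ± 0.40 (SE) in log2 (limma-trend, adjusted p = 0.00254). By RPKM Jag1 made up 95.6 ± 1.85% (SD, n = 3) of the Jagged level in Scr cells against 70.6 ± 3.51% (SD, n = 3) with MICT1 KO, while the sum of both ligands went from 2.96 ± 0.131 to 1.30 ± 0.228 RPKM (SD, n = 3 each). This ligand mix was chosen after its values were seen. Dlk1, which lacks the domain by which other ligands activate Notch and marks preadipocytes, fell from 687 ± 35.0 to 63.9 ± 23.0 (SD, n = 3 each), which is -3.47 ± 0.19 (SE) in log2 (limma-trend, adjusted p = 1.52e-12). Dlk2, named after its values were seen, went the other way, from 33.5 ± 3.50 to 94.0 ± 14.2 (SD, n = 3 each). That is 1.45 ± 0.25 (SE) in log2 (limma-trend, adjusted p = 5.27e-05). Of the 4 tested genes in the list of other receptors and ligands, 2 rose, 1 fell and 1 did not pass. The share that passed was 75%, against 56.9% of all genes tested. Dll1, Dll3 and Dll4 were not analysed here.

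Downstream of the receptors, both nuclear partners changed by little. Rbpj (chromosome 5, from 53555779 to 53657445), which holds the complex on DNA and represses the same genes when Notch is off, had values of 2073, 2395 and 2046 in the Scr cultures against 2495, 2475 and 2451 with MICT1 KO. The MICT1 KO values were all higher, but Scr replicate 2 came close to them. Its log2 fold change, 0.19 ± 0.065 (SE), passed (limma-trend, adjusted p = 0.0157), a rise of 14.2% with a 95% interval from 4.02 to 25.4%. This call rested on single libraries, as the adjusted p rose to 0.0744 without control replicate 1 (log2 fold change 0.16) and to 0.0766 without control replicate 3 (0.15).

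Maml1 (chromosome 11, from 50255634 to 50293131), the Mastermind coactivator that binds the Notch and Rbpj pair, had values of 2287, 2378 and 2493 in the Scr cultures against 2036, 2172 and 1985 with MICT1 KO. All MICT1 KO libraries were lower. Its log2 fold change, -0.21 ± 0.061 (SE), passed (limma-trend, adjusted p = 0.00621), a change of -13.5% with a 95% interval from -20.8 to -5.51%. The other Mastermind genes were less abundant. Maml2 fell from 427 ± 45.4 to 291 ± 35.6 (SD, n = 3 each), which is -0.55 in log2 (limma-trend, adjusted p = 0.000576), and Maml3 was at 189.6 ± 7.40 and 158 ± 8.13 (SD, n = 3 each) without passing (log2 fold change -0.26, adjusted p = 0.135).

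Hes1 (chromosome 16, from 30065357 to 30067796), a basic helix-loop-helix repressor and the best known Notch target, rose. The values were 408, 459.8 and 392 in the Scr cultures against 769, 744 and 683 with MICT1 KO, with a wide gap between the groups. Hes1 went from 420.0 ± 35.4 (SD, n = 3) to 732 ± 44.3 (SD, n = 3), which is 0.80 ± 0.094 (SE) in log2 (limma-trend, adjusted p = 3.21e-07), or 1.74-fold. A larger rise was seen in 1407 of the 12507 genes tested. Among Hes1, Hes6, Hey1 and Hey2, a set chosen after its values were seen, Hes1 made up 55.6 ± 2.86% (SD, n = 3) of the summed RPKM in Scr cells against 62.0 ± 2.02% (SD, n = 3) with MICT1 KO, while the sum went from 22.6 ± 0.582 to 35.5 ± 1.28 RPKM (SD, n = 3 each).

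Hey1 (chromosome 3, from 8663359 to 8667038), a repressor of the related HEY family, did not pass the test. It was at 47.5, 73.2 and 94.6 in the Scr cultures against 94.4, 80.1 and 67.4 with MICT1 KO, so that the MICT1 KO values lay within the Scr range. Its log2 fold change was 0.21 with a 95% interval from -0.33 to 0.74 (limma-trend adjusted p = 0.513), and without control replicate 1, the lowest library, it was -0.059 (adjusted p = 0.862). Only 48 to 99 estimated reads per library stand behind these values, and the interval reaches from a change of -20.4% to a rise of 67.2%. Whether Hes1 and Hey1 changed by different amounts was not tested.

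**Figure D3:**
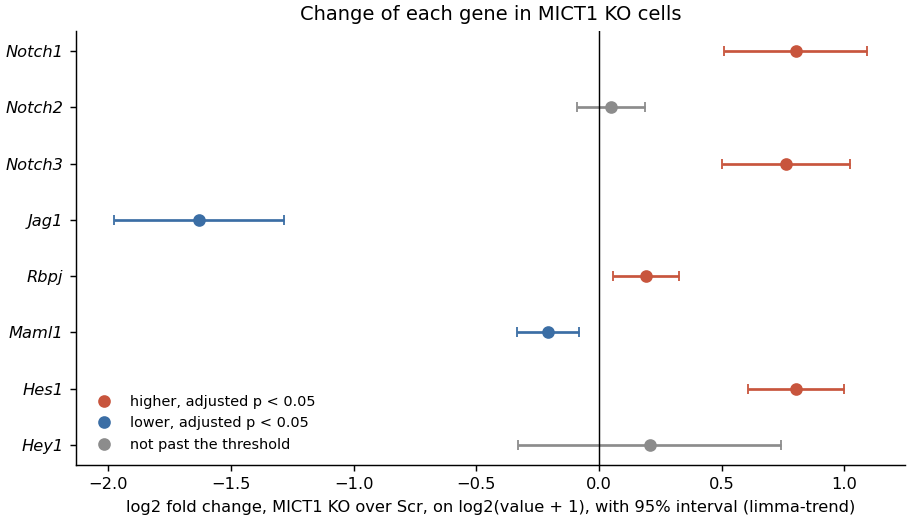
Log2 fold change of each gene, MICT1 KO over Scr, on the log2(value + 1) scale (horizontal axis) with its 95% interval from limma-trend, colored by direction where the adjusted p was under 0.05. Jag1 lies at -1.63, Notch1, Notch3 and Hes1 lie between 0.76 and 0.80, and the intervals of Notch2 and Hey1 include 0.

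Among related repressors, Hes6 rose from 248 ± 2.85 to 338 ± 19.9 (SD, n = 3 each), which is 0.44 in log2 (limma-trend, adjusted p = 0.00291). Hey2, at 13.9 to 28.7 in Scr and 31.6 to 45.8 in MICT1 KO libraries, did not pass with all libraries (log2 fold change 0.80, limma-trend adjusted p = 0.0685) and passed without control replicate 1 (1.01, adjusted p = 0.0444). Hes7 was at 12.4 or less in every library and was not tested. A pair of more distant relatives were put in the same list. Bhlhe40, which is known as a repressor in the circadian clock, fell from 12483 ± 782 to 4936 ± 389.9 (SD, n = 3 each), which is -1.34 in log2 (limma-trend, adjusted p = 1.16e-13), and Bhlhe41 fell as well (log2 fold change -0.66, adjusted p = 2.53e-06). Of the 4 genes of this list that were tested, 1 rose, 2 fell and 1 did not pass. The share that passed was 75.0%, against 56.9% of all genes tested.

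Per length of exon, the 8 genes covered a wide range of levels. Maml1 was highest, at 26.4 ± 1.01 RPKM (SD, n = 3) in Scr, followed over all libraries by Hes1, Notch2 and Rbpj. In Scr cells Hes1 (12.6 ± 0.932 RPKM) stood below Notch2 (15.2 ± 0.634 RPKM), whereas in MICT1 KO cells it stood above it (22.0 ± 1.23 against 15.8 ± 1.68 RPKM, SD, n = 3 each), and in neither group did their values overlap. That order in Scr cells holds only for the length of all annotated exons, since with the longest transcript Hes1 (17.5 ± 1.29 RPKM) was above Notch2 (15.6 ± 0.651 RPKM, SD, n = 3 each) in Scr cells too. In MICT1 KO libraries Hes1 overlapped Maml1 (22.9 ± 1.10 RPKM, SD, n = 3). The lower group of genes began with Notch3, at 2.14 ± 0.376 RPKM in Scr and 3.62 ± 0.330 RPKM in MICT1 KO libraries (SD, n = 3 each). Jag1 was above Notch3 in every Scr library and below it in every MICT1 KO library (2.83 ± 0.176 and 0.916 ± 0.140 RPKM, SD, n = 3 each). Hey1 (1.34 ± 0.433 and 1.51 ± 0.244 RPKM) and Notch1 (0.767 ± 0.120 and 1.34 ± 0.111 RPKM, SD, n = 3 each) had the lowest means over all libraries and overlapped in both groups, while in MICT1 KO libraries Jag1 was below both. The places of Maml1 and Rbpj depended on the length used as well. For Rbpj the mean over all libraries was 11.1 RPKM with all annotated exons and 25.9 RPKM with the longest transcript, above the 24.6 RPKM of Maml1. Over the 6 libraries the genes whose pattern was most like that of Maml1 were Trpc4ap, Tada2b and Yy2 (Pearson correlation of 0.997, 0.995 and 0.994), which describes 6 points in 2 groups.

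**Figure D4:**
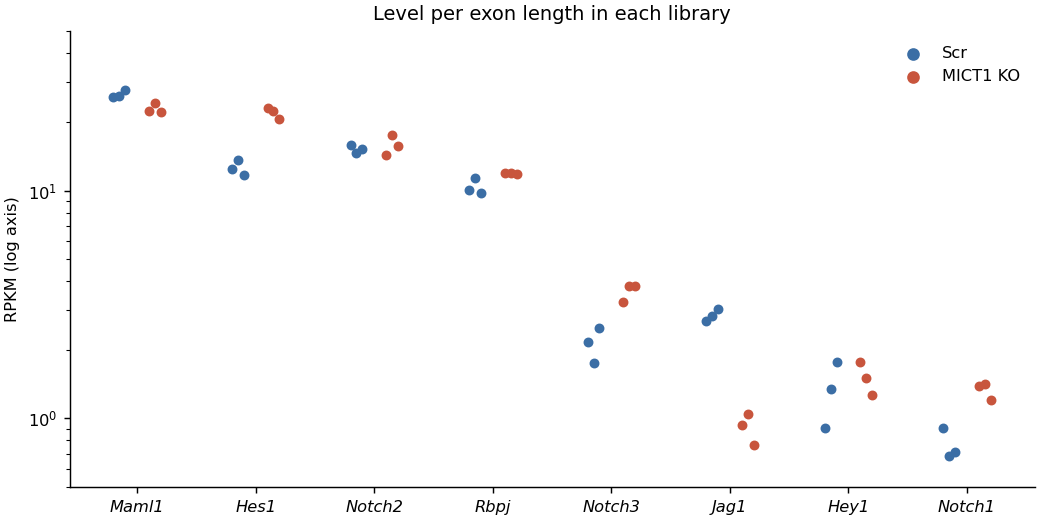
RPKM (vertical log axis) of the 8 genes, ordered by their mean over all libraries, in each Scr (blue) and MICT1 KO (red) library. Maml1, Hes1, Notch2 and Rbpj lie at or above 9.79 RPKM in every library and the other genes at or below 3.81 RPKM, and Jag1 crosses Notch3 between the groups, while Hes1 lies below Notch2 in Scr libraries with this length and above it with that of the longest transcript.

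The rest of the pathway moved in both directions. Of 61 other pathway genes measured, 58 were tested, and of these 18 were higher, 24 were lower and 16 did not pass at an adjusted p under 0.05. The share that passed was 72.4%, against 56.9% of all genes tested (28.5% higher and 28.3% lower). Their median log2 fold change by limma-trend was -0.15. The list held Kyat1, an enzyme of kynurenine metabolism that is no part of the pathway, in error. Without it, a change made after the data were seen, 18 were higher and 23 lower of 57.

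On the ligand side, the ubiquitin ligases that let a ligand pull on its receptor split, with 1 higher and 2 lower of 3 tested. All of these passed, against 56.9% of all genes tested. Neurl1a rose most, from 20.5 ± 2.22 (SD, n = 3) to 116 ± 9.32 (SD, n = 3), which is 2.45 ± 0.26 (SE) in log2 (limma-trend, adjusted p = 8.99e-08). Mib2 fell from 321 ± 24.6 to 202 ± 32.0 (SD, n = 3 each, log2 fold change -0.68, adjusted p = 0.000309), and Mib1, the most abundant, fell too (log2 fold change -0.32, adjusted p = 0.00187). Among enzymes that put sugars on the receptor, 2 rose and 1 fell of 4 tested. That is 75.0%, against 56.9% of all genes tested, but neither rise held when single libraries were left out. Rfng, a Fringe enzyme, fell (log2 fold change -0.36, limma-trend adjusted p = 0.00153). Eogt had a log2 fold change of 0.26 (adjusted p = 0.0366), but it did not pass in 4 of the fits that left out a library, without control replicate 2 (0.19), control replicate 3 (0.27), KO replicate 2 (0.18) or KO replicate 3 (0.26), where the adjusted p was 0.0601 to 0.183. Poglut1, named after its values were seen, had a log2 fold change of 0.25 (adjusted p = 0.0337) and passed without control replicate 3 but in none of the other 5 such fits (0.23 to 0.26, adjusted p from 0.0558 to 0.0809), so that no gene of this list rose without control replicate 2, KO replicate 2 or KO replicate 3.

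Of 10 genes for receptor proteases, 3 rose, 3 fell and 4 did not pass (median log2 fold change 0.039), so that 60.0% passed, near the 56.9% of all genes tested. Adam10, a protease of the first cut, was among those that did not pass (log2 fold change 0.076). Adam17, another ADAM protease, fell (-0.31, limma-trend adjusted p = 0.000359), as did Furin (-0.16, adjusted p = 0.0105). Psen2, a catalytic subunit of gamma-secretase, fell from 204 ± 40.0 to 95.5 ± 10.0 (SD, n = 3 each), which is -1.08 in log2 (limma-trend, adjusted p = 3.00e-05). Aph1b, a scaffold subunit, rose from 97.0 ± 20.8 to 261 ± 25.3 (SD, n = 3 each), a log2 fold change of 1.43 (adjusted p = 4.57e-07), though reads may be shared with its near copy Aph1c, which was at 24.1 ± 4.01 and 25.0 ± 5.62 (SD, n = 3 each). Ncstn, the subunit that receives the substrate, was named after its values were seen and rose from 1070.1 ± 14.6 to 1990 ± 169 (SD, n = 3 each, log2 fold change 0.89, adjusted p = 6.83e-10).

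Endocytic regulators held 4 genes that fell and 1 that rose of 9, so that 55.6% passed, again near the 56.9% of all genes tested. Dtx3l, named after its values were seen, passed as a further rise without control replicate 3 (log2 fold change 0.59, limma-trend adjusted p = 0.0250). Itch, a ubiquitin ligase that targets Notch, fell (log2 fold change -0.51, limma-trend adjusted p = 4.28e-06), and Dtx3, of the Deltex family, rose (0.76, adjusted p = 6.27e-05). Of the 7 other coactivators 4 fell and 1 rose, so that 71.4% passed, against 56.9% of all genes tested (28.5% higher and 28.3% lower). Their median log2 fold change was -0.30. Kat2b, one of the falls (-0.32), did not pass without control replicate 3 (limma-trend adjusted p = 0.0751) or KO replicate 3 (0.0962). Kat2a passed as a further fall without KO replicate 3 (-0.18, adjusted p = 0.0471). Maml2, given above, fell most, and Snw1 rose (log2 fold change 0.24, adjusted p = 0.00432). Corepressors that act with Rbpj split evenly, with 7 higher and 7 lower of 17, or 7 and 6 of 16 without Kyat1. The share that passed was 82.4%, or 81.25% without Kyat1, above the 56.9% of all genes tested. Tle1, one of the falls (-0.17), did not pass without control replicate 2 or 3 or KO replicate 1 or 2 (limma-trend adjusted p from 0.0674 to 0.165). Ctbp2, one of the rises (0.19), did not pass without control replicate 1 (adjusted p = 0.0916) or KO replicate 1 (0.0708). Tle2, of the Groucho family, rose from 21.3 ± 11.4 to 55.6 ± 9.94 (SD, n = 3 each, log2 fold change 1.49, limma-trend adjusted p = 0.00285), also at low values. Fhl1, one of whose forms binds Rbpj, fell from 25.4 ± 8.37 to 4.84 ± 5.86 (SD, n = 3 each, log2 fold change -2.60, adjusted p = 0.00215), at low values.

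**Figure D5:**
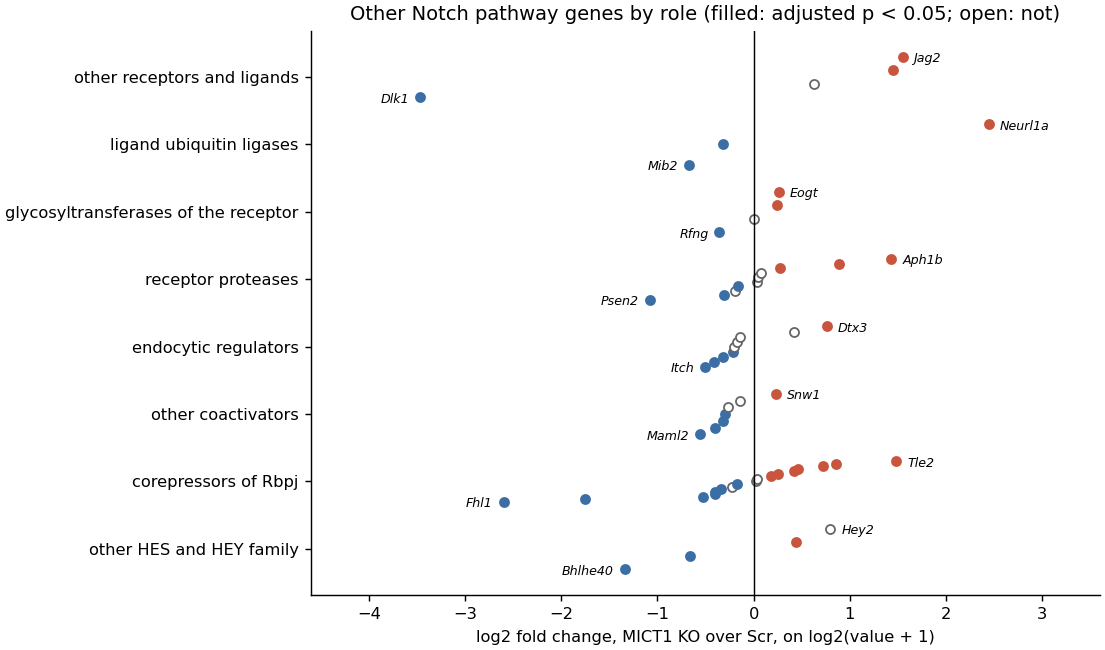
Log2 fold change, MICT1 KO over Scr, on the log2(value + 1) scale (horizontal axis) of the 58 other pathway genes tested, in rows by role, with filled points for an adjusted p under 0.05 and open points for the others. Each row holds genes on both sides of 0, from Dlk1 at -3.47 to Neurl1a at 2.45, and the lowest and highest of each row are named.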

How the data were processed

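RNA-seq of 6 libraries, 3 per group, was used, with groups and replicate numbers taken from the sample titles. The authors deposited a table of normalized signal by gene and library. The methods give strand-specific total RNA libraries, paired-end sequencing and alignment in Partek software to NCBI38/mm10, and the submitters' processing notes add STAR and DESeq2. The counting model, the annotation and whether counting used strand are not given in the sources used here. In each library 89.0% to 89.4% of values below 2000 fell on whole multiples of 1 step, within 0.02, so they were read as estimated reads divided by a size factor (0.949 to 1.08). They are not counts, and no count test was run. The lowest value in the table is above 0.

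The members and gene lists were chosen with earlier results of these data known, so no set test was made and lists are given by counts and medians. In R 4.3.3 with limma 3.58.1, limma-trend was run on log2(value + 1) for genes that reached 10 in 3 or more libraries, with a threshold of 0.05 on p adjusted by the Benjamini-Hochberg method over 12507 genes. Fold changes understate the change of low genes. The script was tested on simulated data in which few genes changed, all by more than Rbpj or Maml1 did here. That run does not bear on calls of small changes or on data where most genes differ. CPM and RPKM used the sum of each library and union exon lengths of GENCODE vM21, found for 13142 genes (98.9%). Positions and upstream windows come from RefSeq on GRCm38.p6, the build of mm10, and all 10 symbols had a position. Besides the 8 genes, the genes named are the largest rise and fall of each list that passed, relatives of the 8 genes by sequence, the markers, and the 3 genes most like the highest of the 8. Some others were named after their values were seen (Dlk2, Mib1, Adam10, Adam17, Furin, Ncstn, Aph1c, Poglut1, Dtx3l, Kat2a, Kat2b, Tle1, Ctbp2, Bhlhe41). Nothing says how the 3 cultures of a group differ, so p-values measure the spread between these libraries only, and an exact test of 3 against 3 cannot give p below 0.1. Alternatives were library size or trimmed mean of M values (TMM) scaling, limma-voom, no filter, and a filter for genes that reached 4 RPKM in any library. Further ones were pseudocounts of 0.5 and 5, the replicate number as a block, and each library left out.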

Additional observations from a re-analysis of the deposited data

How the results depend on the processing

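The calls of Notch1, Notch3, Jag1, Maml1 and Hes1 kept their direction and their side of the threshold in every alternative in which they were tested. Rbpj did not pass without control replicate 1 or 3, and over the fits that left out a library its log2 fold change lay between 0.15 and 0.26. That of Notch2 went from -0.028 to 0.12 and that of Hey1 from -0.059 to 0.43 over the same fits, neither passing in any. When only genes that reached 4 RPKM in any library were kept, only Notch2, Rbpj, Maml1 and Hes1 were left. With these, 2 were higher and 1 lower, because fewer genes were tested. Values near 0 also turned sign for Pofut1 without control replicate 1 (-0.076) or 2 (-0.019) and without KO replicate 1 (-0.0054) or 3 (-0.030), for Aph1c without control replicate 1 (-0.10) or KO replicate 1 (-0.12) and for Ctbp1 without control replicate 1 (-0.0027). Over the fits that left out a library they reached 0.10, 0.20 and 0.054, and none of these 3 genes passed in any.

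Replicate numbers did not pair the libraries, as the deviations of same-numbered libraries correlated at -0.024, -0.015 and 0.064, and the replicate block changed no call of the 8 genes (4 higher and 2 lower, with 3543 higher and 3512 lower over all genes). Without division by length the receptor shares were 5.64% and 8.68% for Notch1 and 8.93% and 13.3% for Notch3 in Scr and MICT1 KO libraries, and 77.5% for Notch2 in MICT1 KO libraries. With the longest transcript the mean levels were 1.58 for Notch1, 25.9 for Rbpj, 24.0 for Hes1 and 1.92 RPKM for Hey1. Depth limits genes that rest on few reads, such as Hey1, Hey2, Jag2, Notch4, Tle2, Aph1c and Fhl1, and Neurl1a and Dlk2 in Scr libraries.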
